A study of Mus musculus with 6 samples.

Results

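The Dlk1-Dio3 imprinted cluster was followed in mouse serum through 47 listed mature miRNAs, which come from 39 hairpins. They were chosen by name, as known members of the cluster, and all 47 were found among the 1281 mature miRNA entries of the deposited count table. Serum small RNA was sequenced after sciatic nerve allografting, in which a length of donor nerve is sewn into a gap in the recipient's nerve. The 6 libraries were FK506 at days 3, 7 and 14 after surgery and no FK506 at the same days, with 1 library for each treatment and day. FK506, also called tacrolimus, inhibits calcineurin and so keeps T cells from being activated; it was given subcutaneously at 1 mg/kg per day. The animals were male and 10 to 12 weeks old, and all of them, the untreated group included, carried a graft. Donors were Balb/c; the recipients are called C57BL/6 in one place of the labels and Balb/c in another. Per the labels, 3 animals were used for each group and day; the sources used here do not say whether a library is from a single animal or a pool. As each group is 1 library, no difference within a day has a replicate check.

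The Dlk1-Dio3 domain lies on distal mouse chromosome 12. Its protein-coding genes Dlk1, Rtl1 and Dio3 are expressed from the paternal copy, and its noncoding RNAs Meg3, Rtl1-antisense, Rian and Mirg, with the miRNAs inside them, from the maternal copy. Several miRNAs made from the Rtl1-antisense transcript are fully complementary to the Rtl1 mRNA and cleave it. The miRNAs of the Mirg region form a dense array of hairpins, several of which are induced by neuronal activity. In adult mice the cluster is known above all for expression in the brain.

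All 39 hairpins lie on the plus strand and span 180 kb from Mir770 to Mir410 (GRCm38). The listed members fall into 12 of the Rtl1-antisense group, from 8 hairpins within 9.6 kb, 31 of the Mirg region from miR-379 to miR-410, from 27 hairpins within 34.7 kb, and 4 others. In GENCODE M21, 5 of the 8 Rtl1-antisense hairpins lie opposite an exon of Rtl1 and 3 lie outside any other annotated gene. Of the 27 Mirg-region hairpins, 6 lie in an exon and 3 in an intron of the noncoding gene Mirg, and 18 lie outside any other annotated gene. The other members are miR-770-3p in Meg3, miR-341-3p and miR-370-3p in Rian, and miR-673-5p between annotated genes.

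The mature sequences that carry the results below are shown 5′ to 3′, from RefSeq (GRCm38.p6), with the seed, bases 2 to 8, in capitals. The first 4 are of the Rtl1-antisense group and the others of the Mirg region.
miR-127-3p: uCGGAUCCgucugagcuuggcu
miR-434-3p: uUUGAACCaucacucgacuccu
miR-136-3p: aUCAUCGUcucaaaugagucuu
miR-540-3p: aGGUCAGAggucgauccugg
miR-411-5p: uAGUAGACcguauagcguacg
miR-381-3p: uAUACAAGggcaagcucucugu
miR-409-3p: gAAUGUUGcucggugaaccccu
miR-410-3p: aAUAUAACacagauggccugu
miR-654-3p: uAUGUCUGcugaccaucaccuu
miR-323-3p: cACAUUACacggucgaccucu
miR-541-5p: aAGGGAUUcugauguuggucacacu
A sequence was found for 44 of the 47 members; the others are miR-376c-3p, miR-485-5p and miR-487b-3p. The 44 carry 44 distinct seeds, so no seed family groups the members. Within 3 edits of another mature mouse miRNA of that table lay miR-381-3p and miR-300-3p, which are close to each other, and miR-376a-3p and miR-376b-3p, likewise a pair. Relative to miR-381-3p, miR-300-3p carries A4G, G21U and U22C, counted from 1 at the 5′ end. The sources used here do not say how reads matching several entries were counted, so this pair is less certain than the other members.

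The counts of all entries summed to 4897727 to 5806228 in a library. The erythroid miR-486-5p and the entry miR-3107-5p, which shares its sequence, took 93.8% to 98.0% of this sum, which left 103058 to 359061 reads for all other miRNAs. Alone, miR-486-5p had 2302676 to 2727053. The sources used here do not say whether a read of the shared sequence was counted in full for each entry. If so, the sum and the share of the pair exceed those of the reads sequenced. The lowest depth outside the pair was in FK506 day 7 and the highest in FK506 day 14. A count of 0 allows up to 0.517 to 0.613 CPM (counts scaled to a library of 1000000) by the library total, taking 3 reads as the limit. All intervals are exact 95% intervals of the reads; they and the limit cover counting error alone, since no molecular identifiers mark the reads.

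Of the 47 members, 35 had a read in any library and 12 had none. Without any read were 10 of the 31 Mirg-region members, among them the first miRNA of the array, miR-379-5p, and miR-376a-3p, miR-376b-3p, miR-376c-3p, miR-380-5p and miR-495-3p. The others of these 10 were miR-154-3p, miR-382-3p, miR-409-5p and miR-539-5p. In the Rtl1-antisense group 1 of 12, miR-665-3p, had none, and miR-770-3p was the unread member of the remaining 4. Detection differed by library, with 17, 17 and 29 members read with FK506 at days 3, 7 and 14, and 15, 25 and 12 without. The libraries with most members read, FK506 day 14 and untreated day 7, were also the deepest outside the miR-486-5p pair. A read in all 6 libraries was found for 8 members, 4 of each group. At least 10 reads in any library were reached by 20 members and at least 50 by 12.

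The summed reads of the 47 members were, in the order of days 3, 7 and 14, 253, 269 and 932 with FK506 and 429, 5280 and 191 without. The sums are given next as a share of the reads outside the miR-486-5p pair, which is itself a scaling between libraries. In FK506 serum they took 0.242% (interval 0.213% to 0.274%), 0.261% (0.231% to 0.294%) and 0.260% (0.243% to 0.277%). The intervals of the 3 FK506 shares overlapped. In untreated serum the share was 0.268% (0.243% to 0.294%) at day 3, 1.77% (1.72% to 1.82%) at day 7 and 0.121% (0.104% to 0.139%) at day 14. The untreated day 7 library therefore stood above the other 5, and untreated day 14 below them. Scaled by TMM, a method that sets library sizes from the bulk of the miRNAs, the sum was 72.7, 71.6 and 77.1 CPM in FK506 serum and 78.8, 1022 and 43.0 CPM in untreated serum. In serum, more releasing cells and more RNA released per cell cannot be told apart.

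Markers of other sources moved with the members in untreated day 7. Reads were found for 17 of 20 neuron and glia miRNAs, and all 17 had their highest scaled level there. Their sum was 2088 CPM in untreated day 7 and 18.2 to 78.0 CPM in the other 5 libraries. The defining neuronal miRNAs miR-9-5p and miR-124-3p had 7683 and 182 reads in untreated day 7, against 1 and 0 in the other 5 libraries together. Their part in the cluster's values was not tested. By their sums the other lists did not peak in that library. Skeletal and cardiac muscle summed to 73.9 CPM against 94.0 to 342, and mesenchymal and vascular to 1671 CPM against 1573 to 5018. Pituitary and endocrine summed to 205 CPM against 209 to 490, and erythroid to 446057 CPM against 227458 to 704816. Abundant members can set such sums, and 1 miRNA in each of these lists but the erythroid was highest in untreated day 7. In the mesenchymal and vascular list it was miR-143-3p. This miRNA had 6608 reads there, 6070 in FK506 day 14, the deepest library outside the miR-486-5p pair, and 597 to 1054 in the rest. In the other 5 libraries the most abundant cluster members, miR-127-3p, miR-434-3p, miR-409-3p and miR-541-5p, were read in every one, at 16 reads or more.

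The Rtl1-antisense members summed to 185, 210 and 601 reads across the 3 days in FK506 serum, and to 276, 2799 and 99 in untreated serum. The Mirg-region members summed to 65, 58 and 317 reads in FK506 serum and to 149, 2466 and 81 in untreated serum. Of the reads of both groups together, the Mirg region took 26.0% (interval 20.7% to 31.9%), 21.6% (16.9% to 27.1%) and 34.5% (31.5% to 37.7%) in FK506 serum. In untreated serum it took 35.1% (30.5% to 39.8%), 46.8% (45.5% to 48.2%) and 45.0% (37.6% to 52.6%). At each day the Mirg share was larger in the untreated library, but the intervals of the pair overlapped at days 3 and 14. They were apart at day 7, where FK506 had 58 Mirg-region reads to 210 Rtl1-antisense reads. These shares depend strongly on the abundance of miR-127-3p, since this member alone gave 2567 of the 2799 Rtl1-antisense reads in untreated day 7. The most abundant member of each group (miR-127-3p and miR-411-5p) was then left out. The Mirg region took 45.7% (36.8% to 54.7%), 41.7% (33.0% to 50.8%) and 58.0% (53.4% to 62.4%) in FK506 serum. In untreated serum it took 65.5% (58.5% to 72.0%), 88.5% (87.1% to 89.9%) and 76.0% (66.6% to 83.8%). The untreated share was again the larger at each day, here with the intervals of each pair apart. Outside untreated day 7 the Rtl1-antisense reads then left were mostly those of miR-434-3p. This member gave 63 of 69, 61 of 74 and 133 of 203 with FK506, and 45 of 70, 34 of 232 and 20 of 25 without. These shares thus largely follow a single member, described below, and do not stand for the whole Rtl1-antisense group. Each pair is still 2 single libraries, and the intervals cover counting error alone.

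**Figure D1:**
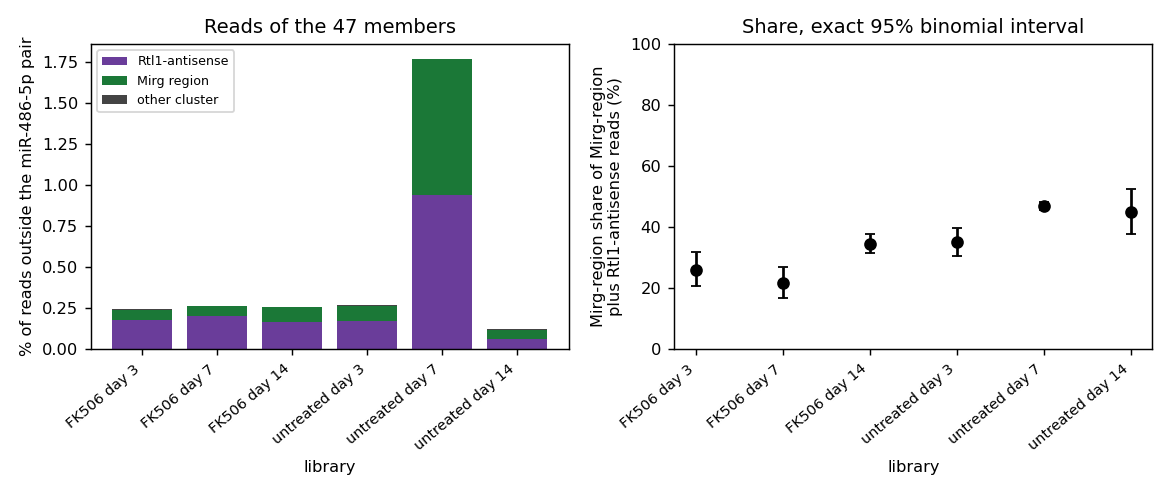
Left: reads of the 47 members as a percentage of the reads outside the miR-486-5p pair, stacked by group, in each of the 6 libraries. Right: the share of Mirg-region reads among Mirg-region plus Rtl1-antisense reads (%), as points with exact 95% binomial intervals. The members took 1.77% in untreated day 7 and 0.121% to 0.268% in the other libraries.

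In the Rtl1-antisense group the most abundant member was miR-127-3p, which is complementary to Rtl1 mRNA. It had 116, 136 and 398 reads at days 3, 7 and 14 with FK506, and 206, 2567 and 74 without. Scaled by TMM these were levels of 33.3, 36.2 and 32.9 CPM with FK506 and 37.9, 497 and 16.6 CPM without. The 3 FK506 libraries lay close together and inside the range of the untreated ones. As a share of all member reads, miR-127-3p stayed between 38.7% and 50.6% in every library, untreated day 7 (48.6%) included.

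The second member by reads, miR-434-3p, also antisense to Rtl1, had 63, 61 and 133 reads in FK506 serum and 45, 34 and 20 in untreated serum. Its TMM-scaled levels were 18.1, 16.2 and 11.0 CPM with FK506 and 8.27, 6.58 and 4.50 CPM without, so the treatment groups did not overlap and every FK506 library was the higher of its pair. The share of all miRNAs with such a separation was not counted. In the edgeR fit given below, miR-434-3p had an adjusted p of 0.462. Unlike miR-127-3p it was not high in untreated day 7, where it made up 0.644% (interval 0.446% to 0.899%) of the member reads against 10.5% to 24.9% in the other libraries. Their hairpins lie close together, at chr12:109592846-109592915 (Mir127) and chr12:109594506-109594599 (Mir434), both opposite an exon of Rtl1.

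For miR-136-3p, from the last hairpin of the Rtl1-antisense group, there were 2, 2 and 28 reads in FK506 serum and 2, 119 and 4 in untreated serum. Its other arm, miR-136-5p, had 0, 2 and 0 reads with FK506 and 1, 32 and 0 without. Both arms were high in untreated day 7. A further member, miR-433-3p, had 27 reads there and 0 or 1 in each of the other libraries. By contrast miR-540-3p had 3, 4 and 12 reads in FK506 serum and 14, 2 and 1 in untreated serum, with untreated day 3 the highest. The remaining Rtl1-antisense members had at most 12 reads in a library: miR-431-5p and miR-434-5p reached 12 and 11 in FK506 day 14, and miR-127-5p, miR-337-3p and miR-337-5p stayed at 6 or fewer.

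In the Mirg region, miR-411-5p, near the start of the array, had 7, 5 and 37 reads in FK506 serum and 16, 674 and 2 in untreated serum. Next by reads over all libraries was miR-409-3p, near the end of the array, with 25, 25 and 66 reads with FK506 and 54, 470 and 44 without. The member miR-381-3p had 3, 1 and 46 reads with FK506 and 6, 611 and 0 without. In all 3 the untreated day 7 library was far above the rest. In the other 5 libraries the TMM-scaled levels of miR-411-5p and miR-381-3p overlapped between treatments, while those of miR-409-3p were 5.46 to 7.19 CPM with FK506 and 9.90 and 9.92 CPM without. That separation was lost by library total, where the log2 ratio of miR-409-3p at day 14 was 0.45 against -0.82 by TMM. The last miRNA of the array, miR-410-3p, had 5, 4 and 21 reads in FK506 serum and 4, 370 and 8 in untreated serum, the same pattern.

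Some Mirg-region members were close to absent outside untreated day 7. There, miR-485-5p had 91 reads, miR-654-3p 83, miR-323-3p 63 and miR-487b-3p 54. In the other 5 libraries miR-654-3p and miR-323-3p had 0 reads, while miR-485-5p and miR-487b-3p had at most 2 in any of them. Of the reads of each over the 6 libraries, untreated day 7 held 92.9% (miR-485-5p), 96.4% (miR-487b-3p) and 100% (miR-654-3p and miR-323-3p). The corresponding share was 91.6% for miR-381-3p, 91.0% for miR-411-5p, 89.8% for miR-410-3p and 68.7% for miR-409-3p.

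A single Mirg-region member with at least 50 reads ran the other way. Counts of miR-541-5p were 16, 18 and 100 in FK506 serum and 68, 9 and 23 in untreated serum. Untreated day 7 was its lowest library, with 3.85% of its reads (interval 1.77% to 7.18%), although the Mir541 hairpin at chr12:109742409-109742498 lies close to that of miR-409 at chr12:109743158-109743236, both within an intron of Mirg. Its share of the member reads was 0.170% in untreated day 7 and 6.32% to 15.9% elsewhere. The other Mirg-region members with reads had at most 23 in a library. Of these miR-300-3p had 23 reads in FK506 day 14 and 14 in untreated day 7, and miR-134-5p, a regulator of dendritic spine size in neurons, had 6 and 9. Outside both groups, miR-370-3p had 15 reads, all in untreated day 7. By contrast miR-673-5p had 0 reads there, 10 in FK506 day 14, 4 in untreated day 3 and 7 in untreated day 14, and miR-341-3p had at most 4 in a library.

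**Figure D2:**
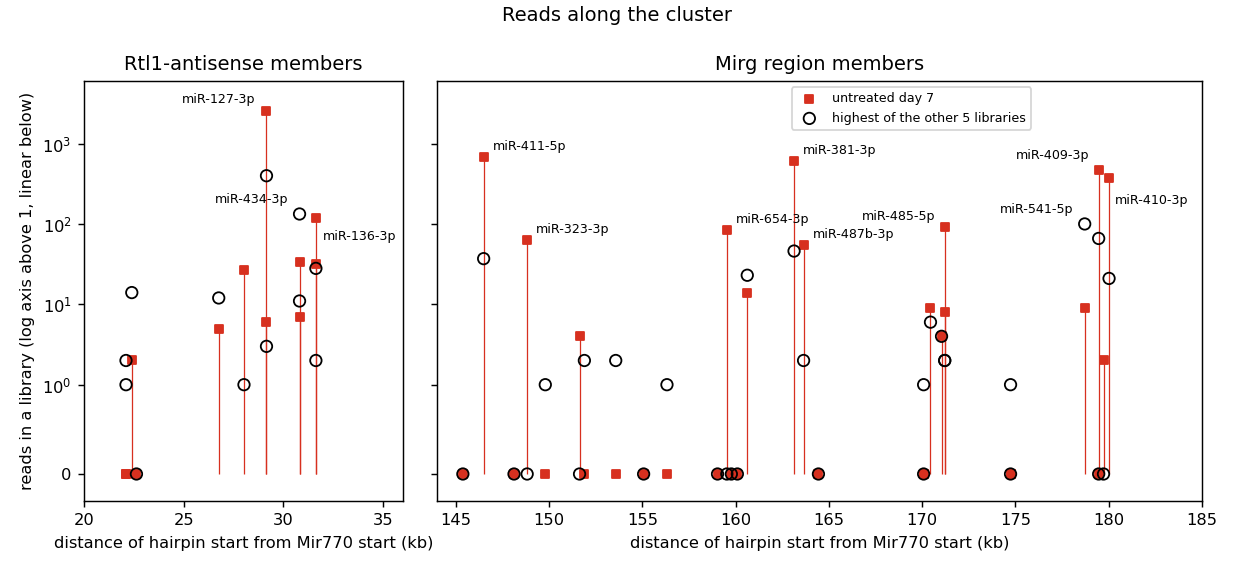
Reads of each Rtl1-antisense member (left) and Mirg-region member (right) against the distance of its hairpin start from the Mir770 start (kb), with squares for untreated day 7 and circles for the highest of the other 5 libraries; the vertical axis is logarithmic above 1 read. Squares stand far above circles for miR-127-3p, miR-136-3p, miR-411-5p, miR-381-3p, miR-409-3p and miR-410-3p, and below them for miR-434-3p and miR-541-5p, with read and unread members interspersed along the array.

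**Figure D3:**
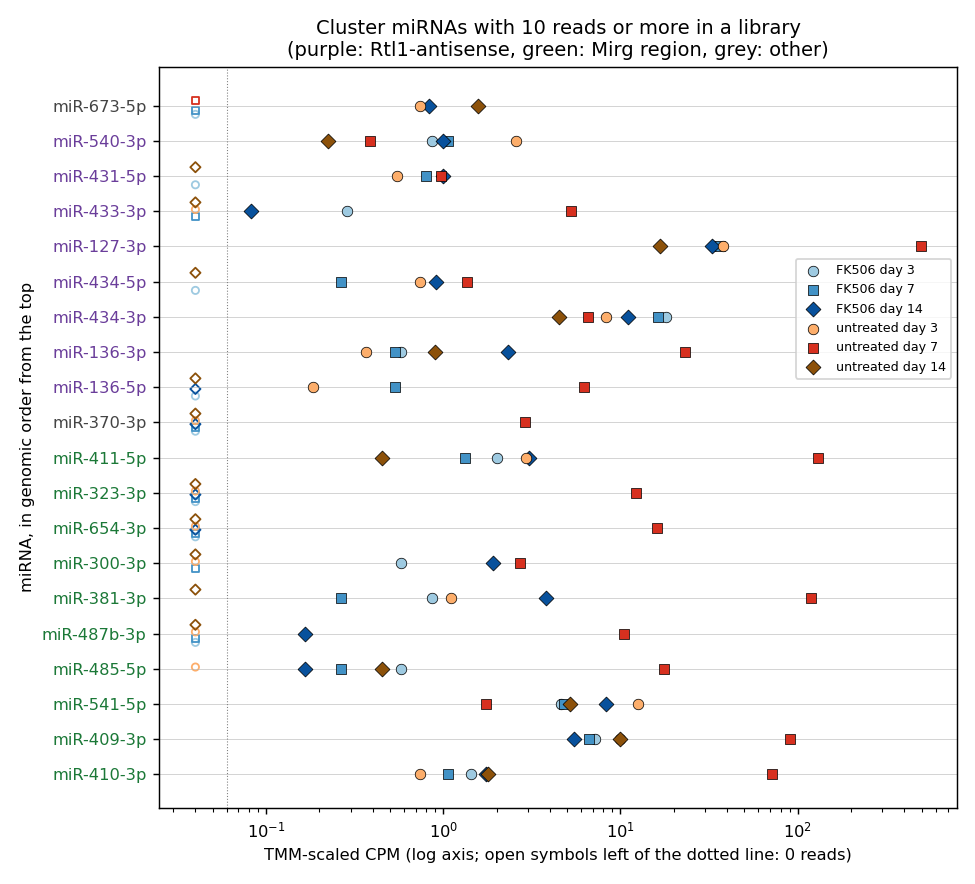
TMM-scaled CPM (log axis) of the 20 members with at least 10 reads in a library, in genomic order, with 1 symbol per library and open symbols for 0 reads. The untreated day 7 symbol lies at 497 CPM for miR-127-3p against 16.6 to 37.9 CPM in the other libraries, while miR-434-3p lies between 4.50 and 18.1 CPM in all 6.

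The comparison of FK506 with no FK506 at each day asks which circulating miRNAs go with immunosuppression of the graft recipient. A difference is called here when the log2 ratio of TMM-scaled counts, with a prior count of 2, is at least 1 or at most -1 and 1 of the 2 libraries has at least 50 reads. At day 3, 4 members met the read minimum. Of these miR-434-3p was higher with FK506, 2.19-fold (interval 1.47 to 3.29), and miR-541-5p was lower, 2.72-fold (1.56 to 5.02). The log2 ratio was -0.18 for miR-127-3p and -0.45 for miR-409-3p, neither called. The call of miR-434-3p was lost with other scalings, at a log2 ratio of 0.51 by library total and 0.90 by median-of-ratios factors against 1.10 by TMM. Among all 99 miRNAs compared at day 3, 21.2% were called higher and 11.1% lower, so 1 of 4 in each direction was near the background.

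At day 7, 11 members met the read minimum, and 10 of them were lower with FK506 and 1 higher, against 46.5% lower and 19.4% higher among the 129 miRNAs compared. The median log2 ratio of the 11 was -4.95, and that of all 129 was -0.74. Scaled to the reads outside the miR-486-5p pair, these medians were -4.24 and 0.33, and the same counts of members stood against 35.7% lower and 34.9% higher. For 8 of the 11, untreated day 7 was the only library with 50 reads, and miR-409-3p met the minimum in this pair only there (25 reads with FK506). A low ratio was thus built into their inclusion, so the count and the median of the 11 say little by themselves. With the read minimum applied to the other 5 libraries, 4 members remained; miR-127-3p and miR-409-3p were lower, and miR-434-3p and miR-541-5p higher, the latter on 18 and 9 reads. Of the 131 miRNAs under that minimum, 28.2% were lower and 26.7% higher.

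Among the Rtl1-antisense members at day 7, miR-127-3p was 13.7-fold lower with FK506 (11.5 to 16.4) and miR-136-3p 43.3-fold lower (11.7 to 361), while miR-434-3p was 2.47-fold higher (1.60 to 3.87). Among the Mirg-region members, miR-409-3p was 13.7-fold lower (9.14 to 21.3), miR-410-3p 67.2-fold lower (26.0 to 248) and miR-411-5p 98.0-fold lower (41.8 to 303). The ratio for miR-381-3p rests on 1 read with FK506, with an interval of 79.4-fold to 17571-fold lower, and that for miR-485-5p likewise, with 11.6-fold to 2641-fold lower. Against the floor of 3 reads, miR-654-3p was at least 20.1-fold lower, miR-323-3p at least 15.3-fold and miR-487b-3p at least 13.1-fold. Summed by group, the Mirg region was 30.9-fold lower (23.8 to 40.8) and the Rtl1-antisense group 9.69-fold lower (8.42 to 11.2), or 2.28-fold lower (1.75 to 3.00) without miR-127-3p. The 2 group sums differed in this ratio beyond counting error, and 1 library on each side carries the difference. Single members did not divide by group, since miR-127-3p and miR-409-3p were both 13.7-fold lower. Without miR-127-3p, the Rtl1-antisense sum with FK506 was mostly miR-434-3p, the member that was higher, with 61 of 74 reads against 34 of 232 without FK506. Scaled to the reads outside the miR-486-5p pair, the folds were smaller: 14.7 (11.3 to 19.4) for the Mirg region, 4.61 (4.003 to 5.33) for the Rtl1-antisense group and 1.08 (0.831 to 1.43) without miR-127-3p. By that scaling the log2 ratio of miR-127-3p was -2.70 against -3.77 by TMM, and that of miR-434-3p was 2.28 against 1.26. By library total miR-434-3p was at 0.76 and no longer called.

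At day 14 the 4 members with enough reads included 1 called higher, miR-434-3p, at 2.45-fold (1.52 to 4.14), and 0 called lower, against 20.8% and 15.4% among the 130 miRNAs compared. For miR-127-3p the ratio was 1.98-fold (1.54 to 2.57), just short of the size rule, for miR-541-5p it was 1.60-fold (1.01 to 2.64), and miR-409-3p was 1.81-fold lower (1.21 to 2.69), a direction that turned with the library total. Below the read minimum, miR-411-5p had 37 reads with FK506 and 2 without, and miR-381-3p had 46 and 0, at least 5.64-fold higher against the floor. Taking the library total in place of TMM moved the median of all miRNAs by 1.31 on the log2 scale at day 14 and gave 3 of 4 members higher, against 64.6% of all miRNAs. It put miR-434-3p at a log2 ratio of 2.50, miR-127-3p at 2.28 and miR-409-3p at 0.45, the last against -0.82 by TMM.

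**Figure D4:**
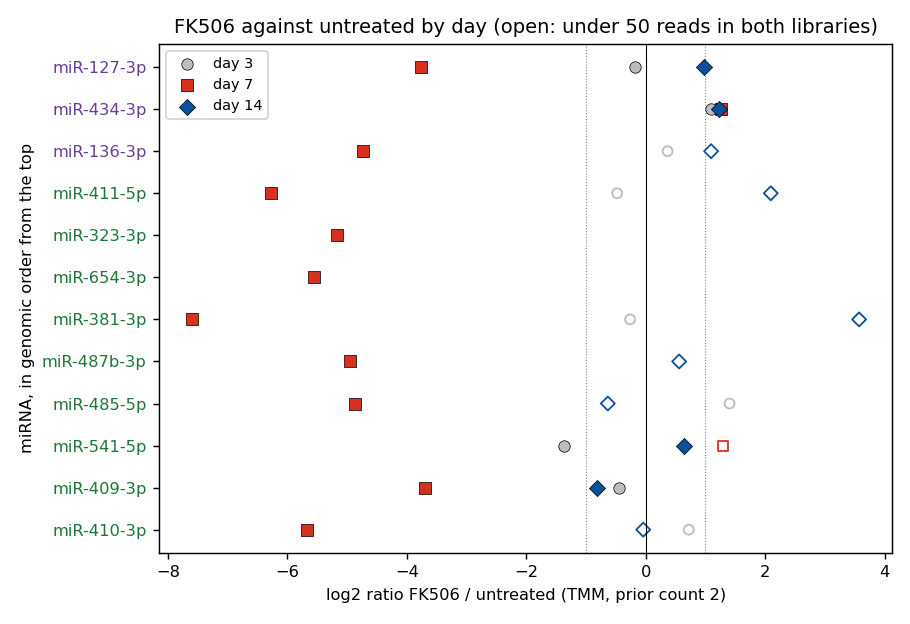
Log2 ratio of FK506 to untreated serum for the 12 members with at least 50 reads in any library, by day, with open symbols where both libraries of the pair had under 50 reads and dotted lines at the size rule; a pair with 0 reads in both libraries is not drawn. Day 7 ratios reach -7.59 for miR-381-3p, while miR-434-3p lies at 1.10, 1.26 and 1.23 at days 3, 7 and 14.

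The treatment effect over the 3 days was tested in edgeR by quasi-likelihood on all 6 libraries, with a day term and 2 residual degrees of freedom. The fit covered 153 miRNAs, of which 5 were members: miR-127-3p, miR-434-3p, miR-409-3p, miR-411-5p and miR-541-5p. At a Benjamini-Hochberg adjusted p of 0.05 it called 0 of the 5 and 0% of the 153; under an unadjusted p of 0.05 lay 0 of the 5 and 11.1% of the 153. DESeq2 and limma called 0 of the 5 as well, while they called 5 and 1 of the 153. Under an unadjusted 0.05 by these methods lay 1 and 2 of the 5 members. The matching share of the 153 was not computed, so these 2 counts have no background and nothing is read from them. Each standard error (SE) below is the absolute log2 change divided by the square root of the F statistic of the fit. The log2 change with FK506 was 1.24 ± 0.63 (SE) for miR-434-3p, positive in 3 of 3 days, with an adjusted p of 0.462 in edgeR, which ran from 0.210 to 0.984 over the alternatives. For miR-409-3p it was -1.63 ± 0.79, negative in 3 of 3 days by TMM but in 2 of 3 by library total, with an adjusted p of 0.443 in edgeR (0.172 to 0.967 over the alternatives). Without the untreated day 7 library it was -0.67. The changes of miR-127-3p (-0.83 ± 0.95) and miR-411-5p (-1.19 ± 1.56) rested on the day 7 pair; without the untreated day 7 library they were 0.39 and 0.87. That of miR-541-5p was 0.22 ± 0.81.

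Within the FK506 arm the question was how the members moved after day 3. None of the 2 members with enough reads at day 7 and none of the 4 at day 14 was called against day 3, where 3.23% and 10.2% of all miRNAs compared were higher and 6.45% and 16.4% lower. Between days 7 and 14 the counts were again 0 of 4 in each direction, against 19.7% higher and 15% lower. The log2 ratio of miR-127-3p was 0.12 at day 7 and -0.02 at day 14 against day 3, and that of miR-434-3p was -0.15 and -0.70. Scaled to the library total, 3 of 4 members were higher at day 14 than at day 3, as were 71.9% of all miRNAs, whose median moved by 1.56 on the log2 scale.

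In the untreated arm, 10 of the 11 members with enough reads were higher at day 7 than at day 3 and 1 was lower, against 47.7% and 14.1% of all miRNAs compared. By day 14, 10 of the 10 measured were lower than at day 7 and 0 higher, against 43.5% and 21.4%. In both counts 8 members reached 50 reads only in untreated day 7, which fixed their direction. In the second count miR-409-3p, with 44 reads at day 14, likewise met the minimum through day 7 alone. Nothing is read from these counts. With the read minimum applied outside untreated day 7, miR-127-3p and miR-409-3p of 4 members were higher at day 7 than at day 3 and miR-541-5p was lower, against 32.1% and 16.8% of the 131 miRNAs. At day 14 against day 7, miR-127-3p and miR-409-3p were lower and miR-541-5p higher, against 25.2% and 23.7%. By TMM miR-127-3p was 13.1-fold higher at day 7 than at day 3 (11.4 to 15.2) and then 29.8-fold lower at day 14 (23.7 to 38.1). For miR-409-3p the same steps were 9.16-fold (6.90 to 12.4) and 9.19-fold (6.74 to 12.8). Scaled to the reads outside the miR-486-5p pair, the log2 ratios of miR-127-3p were 2.73 and -4.18 against 3.70 and -4.87 by TMM, those of miR-409-3p were 2.19 and -2.46 against 3.15 and -3.16, and the median of all miRNAs at day 7 against day 3 was -0.03 against 0.92. The lower member at day 7 was miR-541-5p, 7.18-fold below day 3 (3.57 to 16.4). From day 3 to day 14, leaving day 7 aside, 2 of 3 measured members were lower, miR-127-3p by 2.27-fold (1.74 to 3.01) and miR-541-5p by 2.42-fold (1.49 to 4.06), and 0 higher, against 6.86% lower and 10.8% higher.

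A hairpin gives an arm on its 5′ side (5p) and its 3′ side (3p), of which usually a single arm is kept. Both arms were listed in the count table for 17 hairpins with at least 20 reads in all, and 13 of these gave mostly 3p and 4 mostly 5p reads (miR-411, miR-541, miR-485 and miR-673). The Mir127 hairpin, with both arms in capitals, is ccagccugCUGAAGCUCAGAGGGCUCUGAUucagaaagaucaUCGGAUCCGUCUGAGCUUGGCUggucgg (chr12:109592846-109592915, plus strand). Of its reads 3497 were 3p and 9 were 5p, and the 3p arm took 99.3% to 100% in each library.

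For miR-431 the arms changed places between libraries. Its hairpin is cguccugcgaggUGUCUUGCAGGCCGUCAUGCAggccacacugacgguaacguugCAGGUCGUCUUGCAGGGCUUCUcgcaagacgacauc (chr12:109590447-109590537, plus strand), with the arms in capitals and 5p first. In untreated day 7 it gave 53 reads of 3p and 5 of 5p, a 3p share of 91.4% (interval 81.0% to 97.1%). In FK506 day 14 it gave 3 and 12, a 3p share of 20.0% (4.33% to 48.1%). The remaining libraries held 0 to 3 reads of each arm. For miR-136 the 3p share was 78.8% (71.4% to 85.0%) in untreated day 7 and 100% (87.7% to 100%), 28 of 28 reads, in FK506 day 14. For miR-434 it was 82.9% (67.9% to 92.8%) in untreated day 7, below the 91.8% to 100% of the other libraries, but only FK506 day 3 (94.3% to 100%) had an interval apart from it. Arm shares need no scaling, but each compares single libraries, and miR-431 was singled out after its values were seen.

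**Figure D5:**
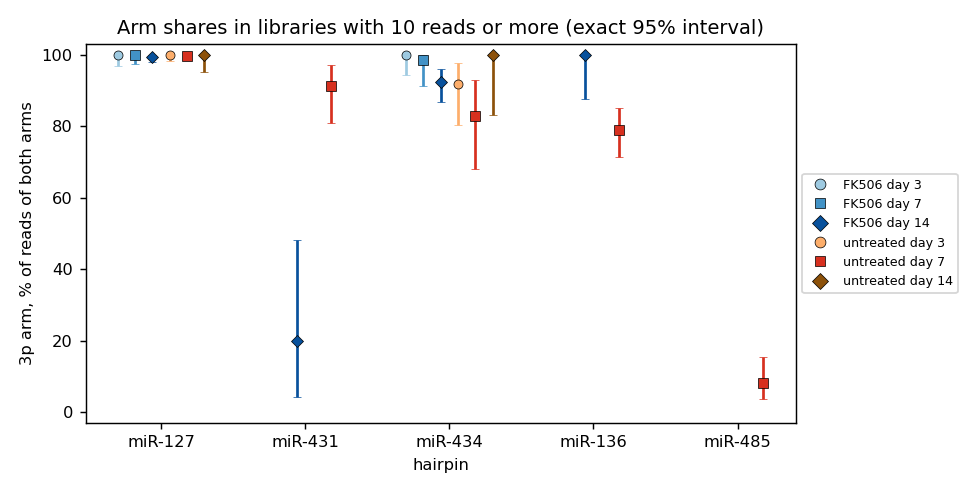
Share of the 3p arm (%) in the reads of both arms for 5 hairpins, in each library with at least 10 reads of the hairpin; bars are exact 95% binomial intervals. The miR-431 share is 91.4% in untreated day 7 and 20.0% in FK506 day 14, while miR-127 stays between 99.3% and 100%.

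Beyond the 47 members, a list of further cluster arms had 67 entries in the table, of which 12 had a read. The highest was miR-431-3p, followed by miR-299a-5p of the Mirg region with 6 reads in FK506 day 14, 25 in untreated day 7 and 0 elsewhere. Then came miR-323-5p with 7 reads, all in untreated day 7, and 3 entries with 6 reads in all, miR-666-5p, miR-673-3p and miR-3072-3p. Adding these arms left the Mirg share within 1 percentage point of its value in every library.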

How the data were processed

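Serum small RNA was measured in 6 libraries, 1 per treatment and day. The deposited table holds unnormalized whole-number counts for each mature miRNA. Linkers were trimmed, reads of 15 to 29 nt were kept and matched to miRBase release 20 with Bowtie and BLAST, per the labels' protocols; the sources used here do not state versions, mismatch settings or the handling of multiple matches. The members, groups and marker lists were chosen with earlier results of these data known.

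Library sizes were scaled by TMM (edgeR 4.0.16, R 4.3.3) over the 153 miRNAs passing filterByExpr with a minimum count of 10. Pairs of libraries were described by log2 ratios and exact binomial intervals, with no test. The quasi-likelihood fit with day as a term was the only test and was tested on simulated data; DESeq2 1.42.0, limma 3.58.1, other scalings, read minimums, prior counts and leaving out each library were alternatives. Values in all libraries are given for members with at least 50 reads in a library and for the 4 members of each group with most reads; miR-431, miR-433-3p, miR-136-5p, miR-300-3p, miR-134-5p and the smaller members were named after their values were seen. Sequences and hairpin positions are from RefSeq (GRCm38.p6), and gene annotation is from GENCODE M21.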

Additional observations from a re-analysis of the deposited data

Results flagged for a closer look

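Some members had FK506 to untreated ratios of opposite sign at different days. Each day is 1 pair of libraries, so these differences were not tested. For miR-127-3p the log2 ratio was -3.77 at day 7 and 0.97 at day 14, a difference of 4.74. For miR-411-5p it was -6.28 and 2.09, a difference of 8.38, with 2 reads in untreated day 14. For miR-381-3p it was -7.59 and 3.57, a difference of 11.16, with 1 read in FK506 day 7 and 0 in untreated day 14. The sign change of these 3 members goes with the high untreated day 7 library.

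The member miR-541-5p changed sign earlier and in the other direction. Its log2 ratio was -1.38 at day 3 and 1.30 at day 7, a difference of 2.67, and 0.64 at day 14, a difference of 2.02 from day 3. Untreated day 3 held 68 of its reads and untreated day 7 held 9.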

How the results depend on the processing

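No paired analysis was possible because the labels give no replicate numbers that link libraries; the fit compares treatments within days through its day term. The number of members with an adjusted p under 0.05 was 0 in each of the 13 settings, with smallest member values of 0.0902 to 0.963. Counts of members past the size rule moved as follows. Shares of all miRNAs under the same setting follow in brackets where computed. Scaled to the library total, day 3 gave 0 higher (7.07%) and 2 lower (30.3%), day 7 0 higher (6.98%), and day 14 3 higher (64.6%). By that scaling FK506 day 14 gave 3 higher against day 3 (71.9%) and 3 against day 7 (67.7%). Median-of-ratios factors gave 0 higher at day 3 and 2 at day 14, and scaling to reads outside the miR-486-5p pair gave 2 at day 14 (26.9%). A minimum of 20 reads gave 5 higher at day 14, 3 and 4 higher in FK506 day 14 against days 3 and 7, and 1 higher in untreated day 14 against day 7. A minimum of 100 reads gave 0 higher and 0 lower of 1 measured at day 3, 0 higher and 6 lower of 6 measured at day 7, and in the untreated arm 6 higher and 0 lower (day 7 against 3), 1 lower (day 14 against 3) and 6 lower (day 14 against 7). At day 7 all of the 6 but miR-127-3p reached 100 reads only without FK506, which fixed their direction. Shares of all miRNAs were not computed for median-of-ratios factors or for minimums of 20 and 100 reads, so nothing is read from those counts. The minimum met outside untreated day 7, chosen after seeing the data, gave 2 higher and 2 lower at day 7, 2 higher in untreated day 7 against 3, and 1 higher and 2 lower in day 14 against 7. Members detected fell from 35 to 20 at 10 reads and 12 at 50. Without the most abundant member of each group, the Mirg share was 45.7%, 41.7% and 58.0% in FK506 serum and 65.5%, 88.5% and 76.0% in untreated serum. In the fit, leaving out 1 library moved the log2 change of miR-541-5p from -0.38 to 1.25 (-0.12 with no day term), of miR-127-3p from -2.08 to 0.39 and of miR-411-5p from -3.74 to 0.87. The cause was not tested. Of the 47 members, 35 stayed under 50 reads in every library, where ratios have wide counting intervals.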

Other observations

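The near-identical pair miR-300-3p and miR-381-3p did not keep a fixed ratio. The former had 23 reads beside 46 of the latter in FK506 day 14, a share of 33.3% (exact 95% interval 22.4% to 45.7%), and 14 beside 611 in untreated day 7, a share of 2.24% (1.23% to 3.73%). The other libraries had 6 or fewer reads of the pair.

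Members with and without reads overlapped in base composition. The 33 members with a read and a sequence had a median GC content of 50% (23.8% to 68.2%), and the 11 without a read had a median of 42.9% (36.4% to 72.7%).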
